A study of Mus musculus with 18 samples.

Results

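Expression of 9 genes of the histone variant H3.3 pathway and of Polycomb repressive complex 2 was examined in mouse hippocampus. The genes were H3f3a and H3f3b, which both encode H3.3, the H3.3 chaperone genes Daxx and Hira, the GHKL-ATPase genes Morc3 and Smchd1, and Ezh2, Suz12 and Eed, the core of Polycomb repressive complex 2. Probes of these genes were taken by their gene symbol in the array platform's annotation, not by their values. The genes themselves were chosen with earlier results of these data known. This gave 9 probes of 23473, 1 for each gene, and all 9 were among the 22538 probes bright enough to be tested.

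H3.3 is placed into chromatin outside of DNA replication. HIRA deposits it at active genes and regulatory regions, whereas DAXX, in a complex with the chromatin remodeller ATRX, deposits it at telomeres, pericentromeric repeats and other silent regions. Polycomb repressive complex 2 methylates lysine 27 of histone H3, a mark that Polycomb repressive complex 1 binds and that keeps developmental genes silent, and ATRX has been linked to the targeting of that complex, among other places on the inactive X chromosome. Postmitotic neurons rely on H3.3 for much of their histone turnover.

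Each of the 18 single-colour DNA microarrays held hippocampal RNA labelled with Cy5. Wild-type mice gave 7 arrays. AtrxΔE2 mice, which carry throughout the body an allele of the X-linked gene Atrx named for the deletion of exon 2, gave 7 arrays. AtrxΔE2 mice that received 5-aminolevulinic acid (5-ALA), a precursor of haem, by mouth at 3 mg/kg every day from postnatal day 30 to day 90 gave 4 arrays. The numbers of mice in the labels equal these numbers of arrays. The labels name no vehicle and no treated wild-type mice, and give neither the sex of the mice nor the age of the untreated ones.

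The arrays' identifiers fell into 2 series, so every comparison was made within a series. In series A were arrays 1 to 3 of wild type and of AtrxΔE2. Arrays 4 to 7 of each genotype and the 4 5-ALA arrays made up series B. Blank spots averaged 37.1 to 40.7 intensity units in series A and 55.3 to 63.2 in series B, and 87.2% to 96.0% of the probes on an array were brighter than its blank spots at their 95th percentile. Within series B the blank level separated the groups, with 55.3 to 56.6 in wild type, 59.25 to 61.6 in AtrxΔE2 and 61.9 to 63.2 with 5-ALA. Group and blank level therefore cannot be told apart there. Values below are log2 normalised intensities, on a scale that has an offset of 50 intensity units added, which makes differences of dim probes smaller. One linear model (limma) over the 5 groups of arrays gave every difference, its standard error (SE) and a Benjamini-Hochberg adjusted p over all 22538 probes, with 0.05 as the threshold. In whole tissue, fewer cells of a type and less RNA per cell cannot be told apart.

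Atrx itself stood lower in the mutants of both series. Its probe stood at 6.82, 7.06 and 7.08 on the wild-type and 6.51, 6.38 and 6.51 on the AtrxΔE2 arrays of series A. In series B it stood at 6.61, 6.36, 6.51 and 6.54 in wild type and at 6.05, 6.31 and 6.29 on the 3 AtrxΔE2 arrays with a usable spot. No usable mutant value reached the wild-type values of its series, although the limma adjusted p did not pass (0.179 and 0.0927, in that order). Of all tested probes 3.84% in series A and 5.74% in series B had all mutant arrays below all wild-type arrays. The Atrx spot of AtrxΔE2 array 7 was marked as unusable and left out. Before normalisation that spot read 107.0, against 80.8 to 91.7 on the wild-type arrays of series B. The order there thus holds for the usable spots only. On the 5-ALA arrays the Atrx probe stood at 6.04, 6.01, 6.23 and 6.17, below the wild-type arrays of the series (difference -0.39, SE 0.08, limma adjusted p = 0.00847). That call was lost in 3 of 16 other settings, the replicate number as a block, averaged array pairs and the blank level as a covariate (limma adjusted p up to 0.523). In the first of these settings, 5-ALA arrays 1 to 3 share a number with series A arrays only. Its 5-ALA differences in series B therefore rest on 5-ALA array 4. Where the probe lies relative to the deleted exon is not given in the sources used here. The hippocampal neuron genes Camk2a, Neurod6, Wfs1 and Nrgn exceeded the array median on all 18 arrays, while Fibcd1 and Prox1 were below it on each of them.

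Of the 9 genes, 2 rose with 5-ALA and none fell. Morc3 was 0.22 higher on the log2 scale and Suz12 0.24 higher in 5-ALA-treated than in untreated AtrxΔE2 hippocampus of series B. The other 7 did not pass the test, and 7 of all 9 differences were above 0. Over all tested probes 6.75% were called in this comparison, 3.49% as higher. An unadjusted p under 0.05 was reached by 4 of the 9, against 22.3% of all tested probes. The median difference of the 9 genes was 0.11, against -0.00041 over all tested probes. Between AtrxΔE2 and wild type none of the 9 genes passed the test in either series.

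**Figure D1:**
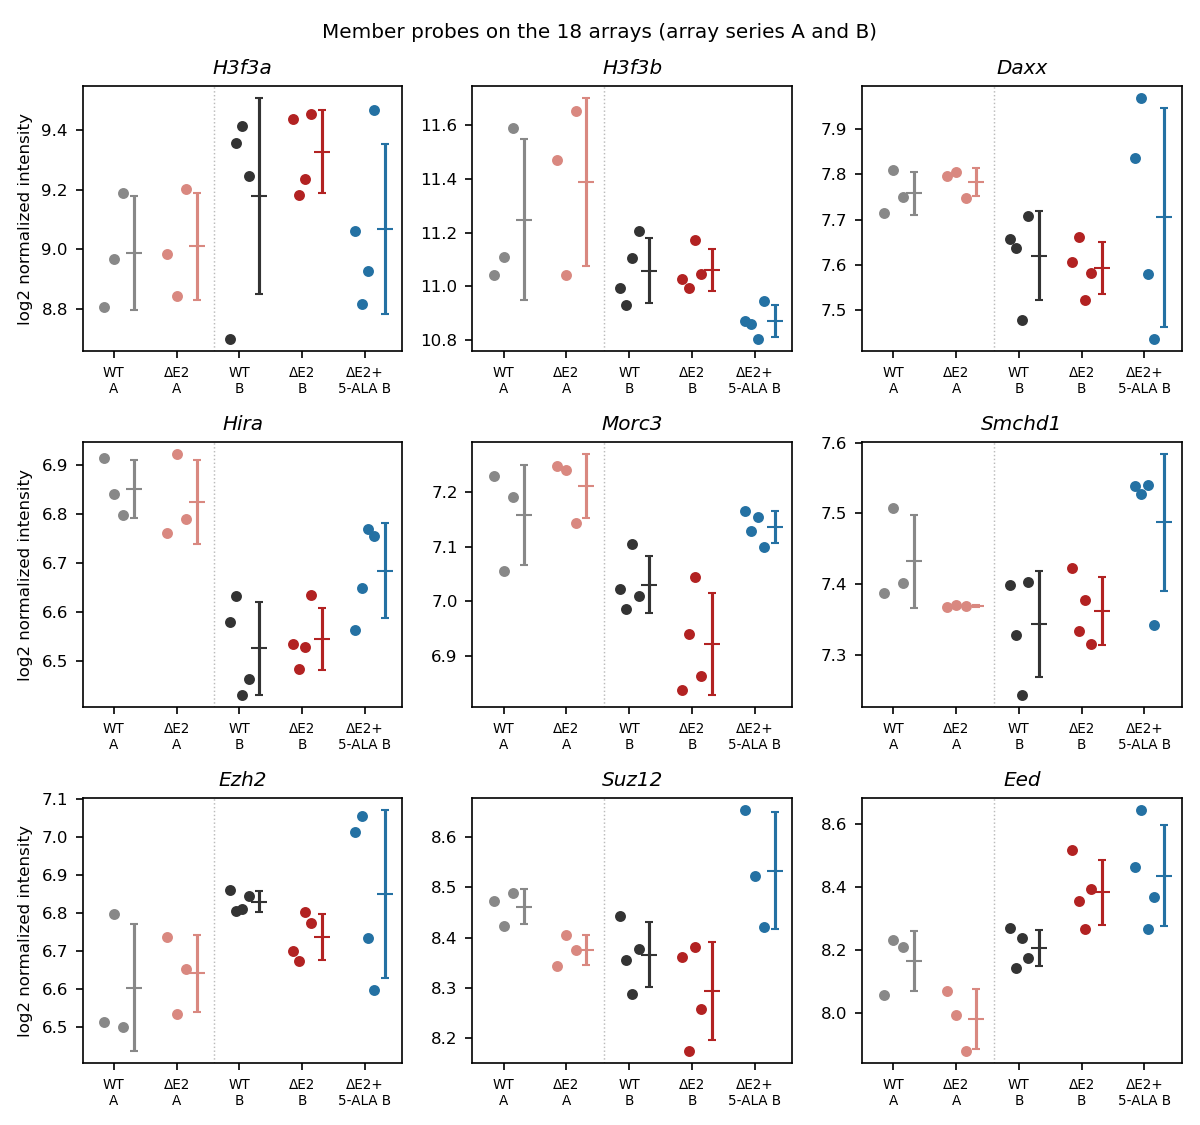
Log2 normalised intensity (vertical axis) of the 9 probes on each array, with groups along the horizontal axis (WT, wild type; ΔE2, AtrxΔE2) and array series A to the left of the dotted line. Points are arrays and bars give the mean ± SD. The 4 5-ALA points of Morc3 and the 3 of Suz12 lie above all 4 untreated AtrxΔE2 points of series B, whereas those of Daxx and Ezh2 are split into a higher and a lower pair.

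MORC3 is a nuclear ATPase with a CW domain that binds methylated lysine 4 of histone H3, forms nuclear bodies with PML and in mouse embryonic stem cells takes part in silencing endogenous retroviruses. Morc3 stood at 7.16, 7.13, 7.16 and 7.10 on the 5-ALA arrays. The untreated AtrxΔE2 arrays of series B held 6.84, 6.94, 7.05 and 6.86, and the wild-type arrays 7.02, 6.99, 7.11 and 7.01. The 5-ALA arrays lay close together and above every untreated mutant array, an order shown by 5.63% of all tested probes, and their lowest was just under the highest wild-type array. The difference from untreated mutants was 0.22 (SE 0.05, 95% interval 0.12 to 0.32, limma adjusted p = 0.0160). In the authors' normalised table the ratio of the group means was 1.28. Against wild type the 5-ALA arrays were 0.11 higher, which did not pass (limma adjusted p = 0.159).

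Untreated mutants gave Morc3 a level 0.11 below wild type in series B (unadjusted p = 0.0343, limma adjusted p = 0.257). In series A the probe stood at 7.25, 7.24 and 7.14 in mutants and 7.23, 7.05 and 7.19 in wild type, and the groups overlapped. The genotype comparison of series B and the treatment comparison share the 4 untreated AtrxΔE2 arrays, so a low value of those arrays enters both. In series B the order of the Morc3 means was 5-ALA (7.14 ± 0.03, SD, n = 4), wild type (7.03 ± 0.05, SD, n = 4) and untreated AtrxΔE2 (6.92 ± 0.09, SD, n = 4), and only the first and the last differed by the test.

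SUZ12 is the zinc finger subunit that holds the core of Polycomb repressive complex 2 together and to which its accessory subunits bind. Suz12 stood at 8.65, 8.52 and 8.42 on 5-ALA arrays 1 to 3. Its spot on 5-ALA array 4 was marked as unusable by the scanner software at some of the 3 gains and is also empty in the authors' table, so it was left out of the values and tests given here. Untreated AtrxΔE2 arrays of series B held 8.36, 8.17, 8.38 and 8.26, and wild-type arrays 8.44, 8.36, 8.29 and 8.38. The 3 usable 5-ALA values lay above all 4 untreated mutant values, an order shown by 5.63% of all tested probes. Nearly all of those probes had 4 usable values in each group, which separate less easily than 3 from 4. The lowest of the 3 values fell within the wild-type range. The difference was 0.24 (SE 0.06, 95% interval 0.12 to 0.36, limma adjusted p = 0.0252), fitted on 3 against 4 arrays. The authors' table gave a ratio of 1.27.

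Suz12 on the 5-ALA arrays was 0.17 above wild type, which did not pass (limma adjusted p = 0.0764). It passed without 5-ALA array 3 (limma adjusted p = 0.0252), with median scaling (0.0405) and with the spot of array 4 kept (0.0387). Untreated mutants were 0.07 below wild type in series B and 0.09 below it in series A, with limma adjusted p of 0.538 and 1.00. In series A the 3 mutant values, 8.34, 8.41 and 8.38, lay below the 3 wild-type values, 8.47, 8.42 and 8.49. Of all tested probes 3.84% showed that order in series A. The order of the means in series B was 5-ALA (8.53 ± 0.12, SD, n = 3), wild type (8.37 ± 0.06, SD, n = 4) and untreated AtrxΔE2 (8.29 ± 0.10, SD, n = 4), where wild type differed from neither neighbour by the test.

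The promoters of the genes that rose are shown because these are the sequences from which both transcripts start. They are RefSeq sequences on GRCm38.p6, from 250 bases before to 50 bases after the annotated start, on the plus strand, at chr16:93831871-93832170 for Morc3 and chr11:79992856-79993155 for Suz12. Capitals mark CCAAT, the letters of the NF-Y motif, and GGGCGG, those of the SP1 motif, read on both strands, so that CCGCCC is the latter on the other strand. No 2 matches overlap in these windows.
Morc3: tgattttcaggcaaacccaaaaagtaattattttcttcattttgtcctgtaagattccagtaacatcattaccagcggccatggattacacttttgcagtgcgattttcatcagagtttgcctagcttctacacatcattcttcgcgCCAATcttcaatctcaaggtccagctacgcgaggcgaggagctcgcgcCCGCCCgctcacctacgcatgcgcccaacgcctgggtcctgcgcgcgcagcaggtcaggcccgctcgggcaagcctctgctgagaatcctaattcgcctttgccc
Suz12: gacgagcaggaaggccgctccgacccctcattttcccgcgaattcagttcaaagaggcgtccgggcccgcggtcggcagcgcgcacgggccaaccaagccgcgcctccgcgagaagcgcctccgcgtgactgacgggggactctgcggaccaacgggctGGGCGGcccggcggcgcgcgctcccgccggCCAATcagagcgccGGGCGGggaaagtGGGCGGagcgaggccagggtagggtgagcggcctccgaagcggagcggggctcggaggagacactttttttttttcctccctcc

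The Morc3 window held 1 CCAAT and 1 GGGCGG, and the Suz12 window 1 CCAAT and 3 GGGCGG. Of 32851 mouse promoters of that length, 37.4% held CCAAT and 35.7% held GGGCGG. All 9 genes had a promoter in RefSeq, 11 windows in all since Daxx has 3. GGGCGG was found for 6 of the 9 genes, CCAAT for 7, and the TATA motif TATAAA, held by 13.6% of all promoters, for H3f3b. The windows had 17 to 41 CpG dinucleotides, with 20 for Morc3 and 41 for Suz12, against a median of 7 over all promoters.

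At least 4 runs of GGG or more on 1 strand, set 1 to 7 bases apart, the letters that can form a G-quadruplex and a kind of sequence to which ATRX is known to bind, were present in the windows of H3f3a and Hira, and in 18.6% of all promoters. Neither gene passed the test in any comparison. Morc3 and Suz12 had no such letters in these windows.

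H3f3a and H3f3b encode the same protein from different chromosomes. H3f3a was 0.26 lower on the 5-ALA than on the untreated AtrxΔE2 arrays (limma adjusted p = 0.379), with 9.06, 8.82, 8.93 and 9.47 on the former and 9.44, 9.18, 9.24 and 9.45 on the latter. The highest of these 8 values was 5-ALA array 4, so the groups overlapped. H3f3b stood at 10.87, 10.86, 10.80 and 10.95 on the 5-ALA arrays and at 11.03, 11.00, 11.17 and 11.04 on the untreated mutant arrays. Every 5-ALA value was below every untreated mutant value, a pattern that 5.79% of all tested probes showed in that direction, but the difference of -0.19 did not pass (SE 0.12, 95% interval -0.45 to 0.07, limma adjusted p = 0.406). Against wild type the differences were -0.11 for H3f3a and -0.19 for H3f3b, with limma adjusted p of 0.703 and 0.350.

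The spread of the 2 H3.3 probes was wide where the shared error was estimated. H3f3b ranged from 11.04 to 11.65 over the 6 arrays of series A, and H3f3a from 8.70 to 9.41 over the 4 wild-type arrays of series B. The genotype differences were 0.02 and 0.15 for H3f3a and 0.14 and 0.00 for H3f3b, in series A and B. The 95% intervals of H3f3a were -0.37 to 0.42 in series A and -0.19 to 0.49 in series B. Those of H3f3b were -0.16 to 0.45 and -0.26 to 0.26. Every interval held differences in both directions, so these arrays did not settle whether the 2 genes differ by genotype. Whether transcripts of H3.3-like retrocopies bind these probes was not tested.

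DAXX brings H3.3 to ATRX. Daxx was 0.11 higher on the 5-ALA than on the untreated mutant arrays, and its adjusted p was 0.507 (limma). The 5-ALA arrays fell apart, with 7.84 and 7.97 on arrays 1 and 2 and 7.58 and 7.44 on arrays 3 and 4, so that the first pair lay above and the last array below all 4 untreated mutant arrays (7.52 to 7.66). The genotype differences were 0.02 in series A and -0.03 in series B. On the 6 arrays of series A, Daxx kept within 7.71 to 7.81.

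HIRA is the scaffold of the chaperone complex for active chromatin. Hira was 0.14 higher on 5-ALA than on untreated mutant arrays (unadjusted p = 0.0261, limma adjusted p = 0.155) and 0.16 higher than on wild-type arrays (limma adjusted p = 0.0852). Its 5-ALA arrays held 6.56, 6.65, 6.77 and 6.76, the untreated mutants 6.53, 6.48, 6.53 and 6.63, and wild type 6.58, 6.63, 6.43 and 6.46. Arrays 2 to 4 of the 5-ALA group lay above all 8 untreated arrays of the series, and array 1 lay among them. The genotype differences were -0.03 in the first series and 0.02 in the second.

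SMCHD1 is a structural-maintenance hinge protein known for keeping genes silent on the inactive X chromosome and at imprinted clusters. Smchd1 stood at 7.54, 7.53 and 7.54 on 5-ALA arrays 1 to 3 and at 7.34 on array 4. Untreated mutants of series B held 7.42, 7.33, 7.38 and 7.31, and wild type 7.40, 7.33, 7.24 and 7.40. The first 3 5-ALA arrays were above all 8 untreated arrays, and array 4 lay in the middle of them. The difference from untreated mutants was 0.13 (SE 0.05, limma adjusted p = 0.125) and that from wild type 0.14 (SE 0.05, limma adjusted p = 0.0633). Without 5-ALA array 4 the adjusted p was 0.0175 against untreated mutants and 0.00887 against wild type, so this array decides both calls. In series A the 3 mutant arrays all read 7.37, below the lowest wild-type array at 7.39, with a difference of -0.06 that did not pass. Such an order was shown by 3.84% of all tested probes in that series.

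EZH2 is the methyltransferase of Polycomb repressive complex 2 and is most abundant in dividing cells. Ezh2 was split like Daxx, with 7.01 and 7.06 on 5-ALA arrays 1 and 2 and 6.73 and 6.60 on arrays 3 and 4. Untreated mutants held 6.70, 6.67, 6.80 and 6.77 and wild type 6.86, 6.80, 6.81 and 6.85. All 4 mutants lay below all 4 wild-type arrays, a pattern shown by 5.74% of all tested probes in that direction, but the difference of -0.09 had a limma adjusted p of 0.664. The 5-ALA difference was 0.11 (SE 0.09, limma adjusted p = 0.517). Of the 9 measured markers of proliferating cells none was called by limma in this comparison and 2 had an unadjusted p under 0.05, Pcna at -0.28 and Mcm2 at -0.07. Their summed normalised intensity was 513.1 to 719.1 on the 5-ALA arrays and 663.6 to 824.6 on the untreated mutant arrays, and their part in the values of Ezh2 was not tested.

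EED reads the methyl mark on lysine 27 and activates the enzyme. Eed stood at 8.07, 7.99 and 7.88 in mutants and 8.06, 8.23 and 8.21 in wild type in series A. In series B it stood at 8.52, 8.36, 8.27 and 8.39 in mutants and 8.27, 8.14, 8.24 and 8.18 in wild type. Mutants were thus mostly the lower group in series A and the higher group in series B, with a narrow overlap in each. The differences were -0.18 (SE 0.08, unadjusted p = 0.0470) and 0.18 (SE 0.07, unadjusted p = 0.0305), and neither passed after adjustment (limma adjusted p of 1.00 and 0.244).

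The test of the difference between the 2 genotype effects of Eed gave 0.36 (SE 0.11, unadjusted p = 0.00599, limma adjusted p = 0.344). Of all tested probes 0.102% were called in that test, and none of the 9 genes was. Eed and Morc3 had an unadjusted p under 0.05 in it, as did 8.94% of all tested probes. Mutants of series B stood 0.40 above those of series A, against 0.04 for wild type. On the 5-ALA arrays Eed stood at 8.46, 8.64, 8.27 and 8.37, overlapping the untreated mutants, with array 2 above all of them (difference 0.05, limma adjusted p = 0.751), and 0.23 above wild type (SE 0.07, limma adjusted p = 0.0614). Without 5-ALA array 3 the latter difference passed, with a limma adjusted p of 0.0204.

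**Figure D2:**
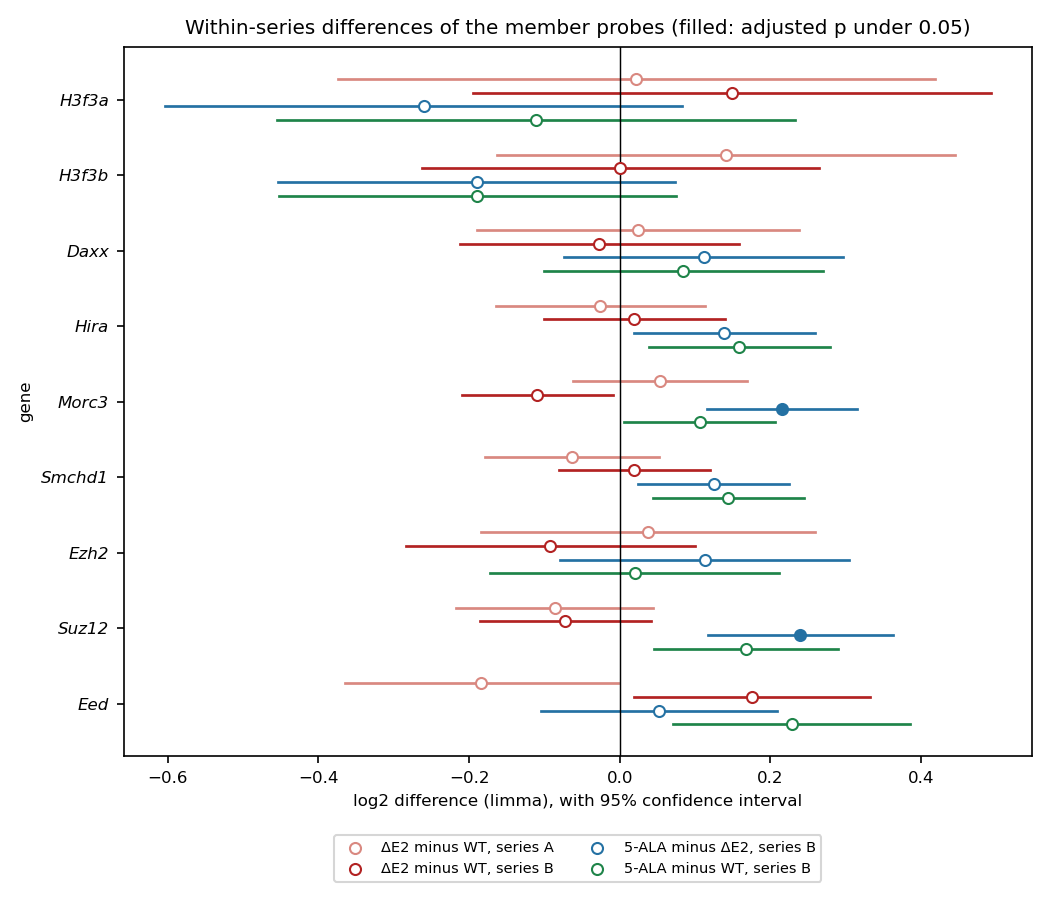
Log2 differences (horizontal axis) of the 9 genes (vertical axis) in the 4 within-series comparisons, as fitted by limma, with 95% confidence intervals as lines and filled points where the adjusted p was under 0.05. Morc3 and Suz12 are filled for 5-ALA minus AtrxΔE2, at 0.22 and 0.24, and no other point is filled.

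In the genotype comparisons 0 of 9 genes were called. In series A this stood beside 0.00887% of all tested probes, and 1 of the 9 genes, Eed, had an unadjusted p under 0.05, against 3.02% of all probes. In series B it stood beside 2.41%, and 2 of the 9, Eed and Morc3, had such a p, against 16.6%. The 9 differences ran from -0.18 to 0.14 in series A and from -0.11 to 0.18 in series B. The groups did not overlap for Smchd1 and Suz12 in series A, both lower in mutants, where 3.84% of all tested probes showed this, and for Ezh2 in series B.

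In the comparison of 5-ALA with wild type 0 of 9 genes were called, beside 10.4% of all tested probes. It shares the 5-ALA arrays with the treatment comparison. Unadjusted p was under 0.05 for 5 genes, Eed, Smchd1, Suz12, Hira and Morc3, all of them higher, against 27.1% of all tested probes in either direction. The median difference of the 9 genes was 0.11, against 0.00 over all tested probes, and no gene had groups without overlap, against 16.1% of all tested probes.

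Calls of Morc3 and Suz12 depended on how the arrays were treated. Morc3 lost its call in 5 of 16 other settings and without 5-ALA array 1 (limma adjusted p = 0.0527). Suz12 lost it in 8 of the 16 and without AtrxΔE2 array 5 (0.0621), AtrxΔE2 array 7 (0.0635), 5-ALA array 1 (0.114) or 5-ALA array 2 (0.0668), all limma adjusted p. Among these settings, the replicate number as a block has only 5-ALA array 4 to compare with series B. Suz12 has no usable spot on that array, so its difference cannot be estimated in that fit. Morc3 stayed higher with 5-ALA in every one of these fits, and Suz12 in all the others. With consecutive arrays of series B averaged in pairs limma called neither of them and 0 of all tested probes, although 2527 had an unadjusted p under 0.05.

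**Figure D3:**
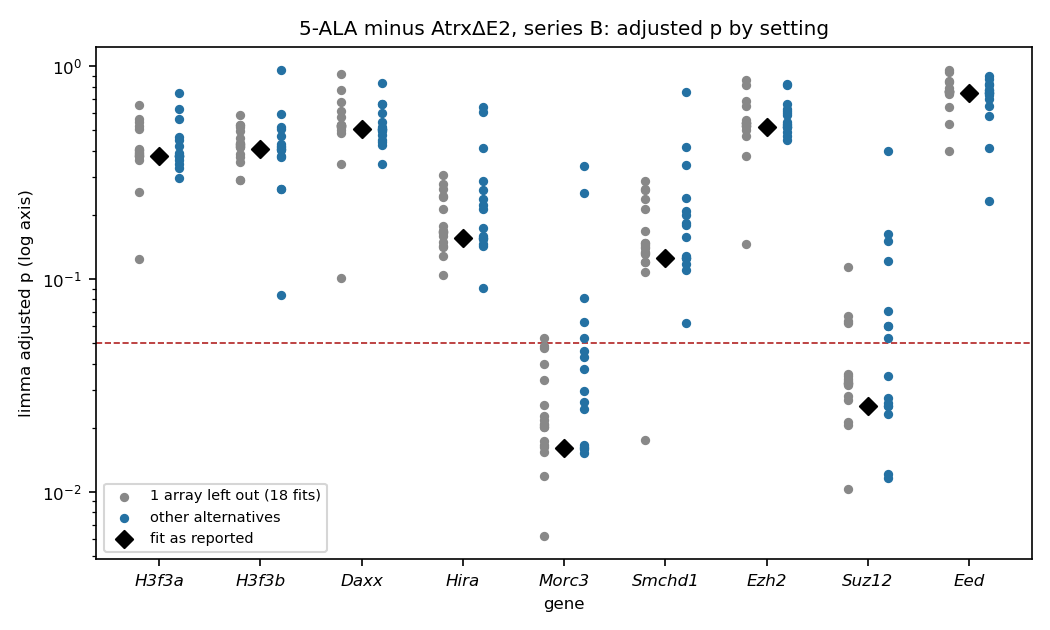
Limma adjusted p (vertical axis, log scale) of the 9 genes (horizontal axis) for 5-ALA minus AtrxΔE2 in series B. Diamonds are the fit as reported, grey points the 18 fits that leave out 1 array, blue points other settings, and the dashed line is 0.05. Among the blue points of Suz12 is the fit with the replicate number as a block, which cannot estimate its difference. The diamonds of Morc3 (0.0160) and Suz12 (0.0252) lie below the line with points on both sides of it, and for Smchd1 a single fit, the one without 5-ALA array 4, lies below it.

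In each group of series B, consecutive arrays deviated more alike than the other pairs of arrays, and in both mutant groups their correlations were positive. Deviations from a group mean cancel out, which by itself makes such correlations negative on average. Across all tested probes, deviations from the group mean correlated at 0.447 between 5-ALA arrays 1 and 2 and at 0.427 between arrays 3 and 4, against -0.771 to -0.658 for the other 5-ALA pairs. In untreated mutants the consecutive pairs correlated at 0.185 and 0.247 and the others at -0.687 to -0.536. In wild type the consecutive pairs correlated at -0.200 and 0.0205 and the others at -0.623 to -0.264. For Daxx the means of these pairs were 7.90 and 7.51, for Ezh2 7.03 and 6.67, and for Eed 8.55 and 8.32. For Morc3 they were 7.15 and 7.13, both above the pair means of untreated mutants, 6.89 and 6.95. The part of the pairs in the other differences was not tested.

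Among the 9 probes, pairs of genes varied together over the 12 arrays of series B, given here as a description of points that share arrays, pairs of arrays and groups. The highest correlations were those of Daxx with Ezh2 (Pearson r 0.82, Spearman rho 0.62, n = 12 arrays), Ezh2 with Suz12 (0.81 and 0.69, n = 11) and Smchd1 with Suz12 (0.79 and 0.78, n = 11). H3f3b with Hira (-0.71) and H3f3a with Smchd1 (-0.66) had the most negative Pearson r. After the group means were removed, Daxx and Ezh2 still had an r of 0.83, whereas Morc3 and Suz12 went from 0.64 to 0.0016.

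**Figure D4:**
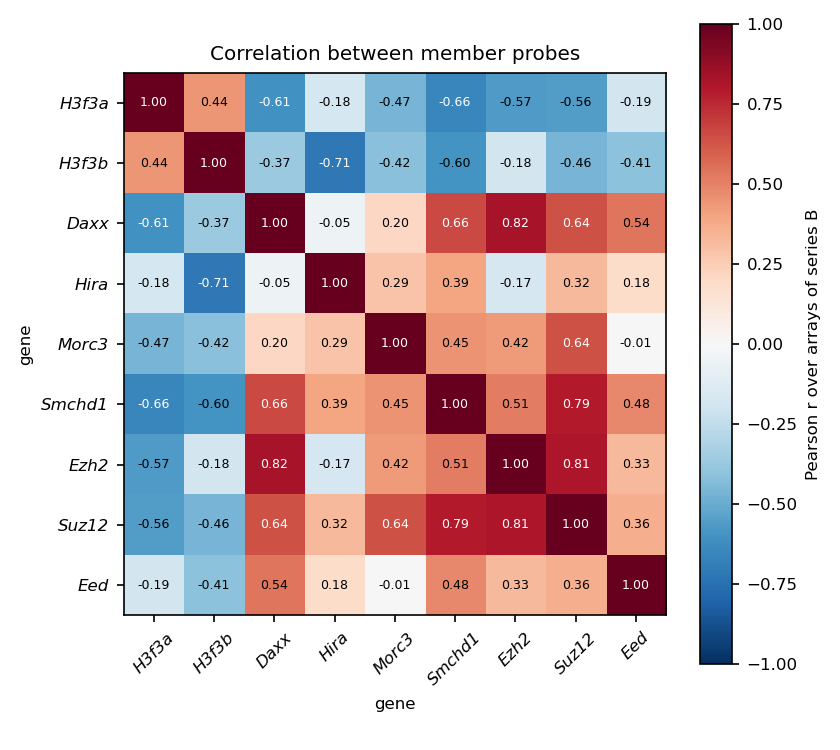
Pearson correlation (colour and number) between each pair of the 9 probes, named on both axes, over the 12 arrays of series B (11 for Suz12). Daxx, Ezh2, Smchd1 and Suz12 have positive values with each other, from 0.51 to 0.82, and both H3.3 genes have negative values with the other 7.

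The 2 named genes most like each member over those arrays were found by Pearson r. For Morc3 they were Pheta1 (0.92) and Pcdha1 (0.90), and for Suz12 Slc23a2 (0.95) and Gskip (0.94). Daxx was most like Agpat1 and Srsf6 (both 0.94), Hira like Pde6h (0.93) and Ptprf (0.91), and Smchd1 like Aak1 (0.92) and Opa3 (0.90). Ezh2 was most like Sdc4 (0.96) and Ccng1 (0.95), and Eed like Nebl (0.94) and Arhgap5 (0.93). H3f3a was most like Cox19 (0.93) and Zswim7 (0.92), and H3f3b like Nmi (0.92) and Ebf1 (0.90). None of the 9 genes was among another's most similar genes. Only probes with a value on all 12 arrays were searched, so Suz12 could not be found this way.

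The level of several of the 9 probes also differed between the series within a genotype. In wild type Hira was 0.33 lower in series B than in series A, and in mutants 0.28 lower. Ezh2 was 0.23 higher in wild type and 0.10 higher in mutants, and H3f3a 0.19 and 0.32 higher. Of all tested probes 16.0% had a larger wild-type gap than Hira. Summed normalised intensities of cell type markers differed too. In wild type of series A and B their medians were 4162.7 and 15872.5 for myelin, 1049.9 and 5913 for striatum and thalamus, and 55.1 and 29892 for choroid plexus. They were 13853.5 and 6685.5 for interneurons, 11756.8 and 7657.7 for astrocytes, and 1690.1 and 1534.6 for endothelial cells. Their part in these gaps and in the Eed differences was not tested. The series and whatever differs with it cannot be told apart.

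Genes that work with these 9 were examined as 53 partner genes in 6 lists, of which 51 were measured. These lists too were chosen with earlier results of these data known. With 5-ALA, against untreated mutants, 6 of the 51 rose and none fell (11.8%, against 6.75% of all tested probes), and the median difference was 0.05. PRC1 subunits gave 3 of 18: Rnf2, the catalytic ubiquitin ligase (0.22, SE 0.05, limma adjusted p = 0.0177), Cbx7, a chromodomain reader of methylated lysine 27 (0.33, SE 0.09, limma adjusted p = 0.0369), and Kdm2b, which binds unmethylated CpG islands (0.29, SE 0.08, limma adjusted p = 0.0483). The PRC2 partners gave 1 of 10, Aebp2, an accessory subunit (0.12, SE 0.03, limma adjusted p = 0.0243).

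Of the 2 lysine 27 demethylases Kdm6a rose (0.17, SE 0.04, limma adjusted p = 0.0219), and of the 5 genes of the MORC family and the SMCHD1 partner list Morc2a rose, which works with the HUSH silencing complex (0.27, SE 0.04, limma adjusted p = 0.00263). None of the 14 H3.3 deposition partners and none of the 3 CAF-1 subunits, the chaperone for replication-coupled H3, was called.

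Of these 6, Morc2a kept its call with each of the 18 arrays left out. Rnf2 lost it without AtrxΔE2 array 7 or 5-ALA array 1, with an adjusted p of at most 0.0589. Aebp2 lost it without AtrxΔE2 array 4 or 5-ALA array 1 (at most 0.0668), and Kdm6a without AtrxΔE2 arrays 5 or 7 or 5-ALA arrays 1 or 2 (at most 0.0738). Cbx7 lost it without any 1 of the 4 untreated mutants of series B, 5-ALA array 1 or 5-ALA array 2 (at most 0.109), and Kdm2b without any 1 of 13 arrays (at most 0.128). All of these are limma adjusted p. Under the 16 other settings tried, Morc2a lost its call in 2, Kdm6a in 7, Kdm2b in 10, Rnf2 in 6, Cbx7 in 7 and Aebp2 in 6. With consecutive arrays as a random block 5 of the 6 lost the call (limma adjusted p of 0.0708 to 0.132) and Morc2a kept it, beside 371 called probes in all.

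**Figure D5:**
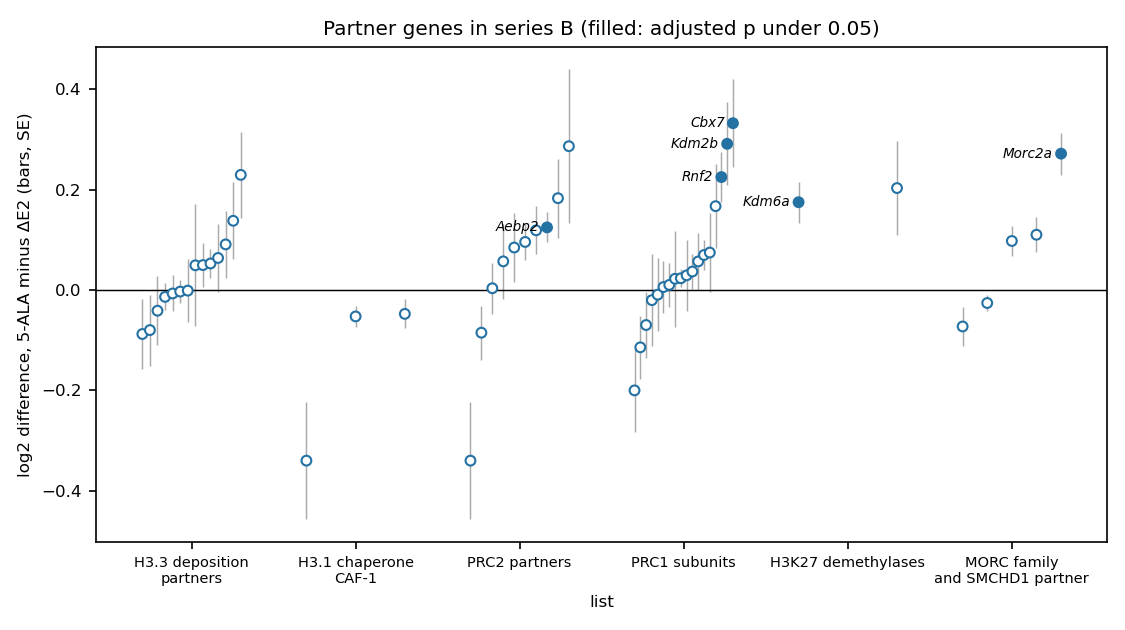
Log2 differences (vertical axis, bars are the SE) of the 51 measured partner genes in 5-ALA minus AtrxΔE2, by list along the horizontal axis and in rising order within a list; filled, named points had an adjusted p under 0.05. The 6 filled points lie between 0.12 and 0.33, and Rbbp4, which belongs to 2 lists, is drawn in both at -0.34.

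In the genotype comparison 0 of 51 partner genes were called in series A and 2 in series B (3.92%, against 2.41% of all tested probes). Hirip3, which encodes a HIRA-interacting protein, rose (0.29, SE 0.07, limma adjusted p = 0.0437), and Dek, an H3.3 chaperone gene, fell (-0.32, SE 0.08, limma adjusted p = 0.0427). Hirip3 lost its call without any 1 of 14 of the 18 arrays (limma adjusted p at most 0.128) and Dek without any 1 of 12 (at most 0.127). Under the 16 other settings they lost it in 8 and 9, the random block of consecutive arrays among them (limma adjusted p of 0.234 and 0.219).

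Against wild type, 4 of 51 partner genes rose in the 5-ALA arrays and 4 fell (15.7%, against 10.4% of all tested probes). Kdm2b (0.32), Phc1, a polyhomeotic subunit of PRC1 (0.30), Morc2a (0.15) and Pml, the scaffold of the nuclear bodies that hold DAXX and ATRX (0.12), were higher, with limma adjusted p of 0.0263, 0.0361, 0.0381 and 0.0212. Rbbp4, a histone-binding subunit of both PRC2 and CAF-1 (-0.39), Bmi1, a RING-finger subunit of PRC1 (-0.32), Cbx8, a chromodomain subunit of PRC1 (-0.30), and Asf1a, which hands histones to HIRA (-0.24), were lower, with limma adjusted p of 0.0463, 0.0269, 0.0105 and 0.0400. Cbx8 kept its call with each array left out, and each of the other 7 lost it without at least 3 of the arrays. Rbbp4 lost it without any 1 of 15 arrays, Asf1a of 7, Phc1 of 6, Bmi1, Kdm2b and Morc2a of 5, and Pml of 3, with limma adjusted p of at most 0.139. Each of the 8 lost its call in 5 to 9 of the 16 other settings, and Morc2a turned to -0.016 in the fit with the replicate number as a block. That fit has only 5-ALA array 4 to compare with series B. With consecutive arrays as a random block 7 of the 8 lost the call (limma adjusted p of 0.0778 to 0.118) and Cbx8 kept it.

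Markers of other cell types and of neighbouring tissue moved in the same treatment comparison. Microglial markers were lower for 4 of 12, with a sum of normalised intensity of 1807 to 1883 on the 5-ALA arrays and 2096 to 2671 on the untreated mutant arrays. Markers of neighbouring striatum and thalamus were lower for 4 of 9 and higher for 1, with sums of 4236 to 4658 and 6826 to 7557. Choroid plexus markers were lower for 6 of 10, with sums of 28516 to 32028 and 30711 to 36056, against 52.7 to 130.2 in all of series A. Myelin markers were lower for 2 of 11 and higher for 1, and excitatory neuron markers higher for 1 of 10. Endothelial markers were higher for 1 of 9 and lower for 1. Of all tested probes 6.75% were called in this comparison. Against wild type the 5-ALA arrays were lower for 7 of 12 microglial markers (sums of 2346 to 2817 in wild type), 5 of 11 myelin markers (10289 to 12429 against 14352 to 17308) and 3 of 9 astrocyte markers (6963 to 7147 against 7586 to 8341). They were higher for 4 of 10 excitatory neuron markers (2549 to 3772 against 2336 to 2541) and for 2 of 8 interneuron markers. Of 10 choroid plexus markers 3 were higher and 3 lower. Of 9 striatum and thalamus markers 1 was lower, with sums of 4236 to 4658 against 5139 to 6381. Also lower were 1 of 9 endothelial and 1 of 9 proliferating cell markers. Against wild type 10.4% of all tested probes were called. Untreated mutants also differed from wild type in series B, with 5 of 10 choroid plexus markers higher and 2 of 9 astrocyte markers lower. Of 9 striatum and thalamus markers 1 was higher and 2 lower, with sums of 6826 to 7557 in mutants and 5139 to 6381 in wild type. In the same comparison 1 of 11 myelin markers was lower and 1 of 8 interneuron markers higher, beside 2.41% of all tested probes called. The part of all these in the differences of Morc3, Suz12 and the partner genes was not tested.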

How the data were processed

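Scans were made at 3 gains, per the file headers, and the deposited value of a spot is a median intensity at 635 nm, not scaled between arrays. Per the labels' protocols, total RNA was amplified to amino allyl RNA and coupled to a Cy dye. A second deposited table holds the authors' normalised intensity per probe on a linear scale, with a median of 25 on every array. How it was made is not given in the sources used here.

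Spots marked at any gain were left out, at most 11 per array, as those of at least 1.3 times the blank level were empty in the authors' table (63 of 63). Intensities were corrected with normexp (offset 50), taken as log2 and quantile normalised. Probes had to exceed the blank spots' 95th percentile on 4 or more arrays to be tested, which left out 935. The 5 groups of arrays were fitted with limma 3.58.1 in R 4.3.3, whose moderated tests are two-sided. The fit was tested on simulated data with independent noise on each array, so that test does not cover the correlation of consecutive arrays. The number of arrays limits the precision.

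The members and lists were chosen with earlier results of these data known. Named were the 9 genes, Atrx, up to 6 called genes per partner list and comparison, and the 2 genes most like each member. A gene with several probes was represented by its brightest tested probe. Symbols came from the platform's annotation (16631 probes with 1 symbol, 6842 not listed), updated through RefSeq genes on GRCm38.p6. Alternatives changed the model, background correction, normalisation, values, filter, threshold and arrays. Chosen after seeing the data were leaving out spots only when marked at all 3 gains, and the alternatives for partner genes.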

Additional observations from a re-analysis of the deposited data

Results flagged for a closer look

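Smchd1 on 5-ALA array 4 stood apart from the other 3 5-ALA arrays. It had the lowest value of its group, 7.34, and the nearest other array had 7.53. The gap was 0.933 of the range of the group, above Dixon's critical value at the 95% level for 4 arrays. Of 26 groups examined this way 1 was marked, and chance marks about 1 in 20.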

How the results depend on the processing

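Numbers of called probes are given in the order genotype in series A, genotype in series B, 5-ALA against AtrxΔE2, 5-ALA against wild type, and difference of the genotype effects. They were 2, 543, 1522, 2335 and 23 as reported. With series as a covariate they were 20, 20, 1712 and 1722, and with only the groups compared 0, 547, 471, 1159 and 24. Array pairs as a random block (correlation 0.339) gave 2, 147, 371, 699 and 13, the blank level as a covariate 2, 21, 608, 2 and 2, quality weights 4, 929, 1057, 2168 and 56, and a trended and robust prior 4, 515, 1430, 2523 and 25. The blank level separated the groups of series B, so that covariate and the groups cannot be told apart there. Median scaling gave 6, 3938, 973, 1628 and 24, cyclic loess 3, 392, 1252, 1527 and 23, the table of the authors gave 2, 388, 843, 2944 and 7, and a threshold of 0.10 gave 3, 1008, 2660, 3971 and 47. Averaged pairs gave 0 by limma in the 3 comparisons of series B (1960, 2527 and 3021 at unadjusted p under 0.05). With 1 array left out the counts ran from 1 (without wild-type array 2) to 8 (without AtrxΔE2 array 3), from 250 (without wild-type array 4) to 621, from 586 (without 5-ALA array 1) to 2179, from 984 (without 5-ALA array 2) to 3364, and from 5 (without wild-type array 2) to 34. Among called probes, 50.5% were higher in the genotype comparison of series B, 32.6% with median scaling and 13.9% with the authors' values. For 5-ALA against wild type these shares were 53.0%, 73.3% and 16.0%, and for the difference of the genotype effects 52.2%, 75.0% and 14.3%. The authors' values moved the median of all probes to -0.11 for 5-ALA against wild type.

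Same-numbered arrays correlated in their deviations at 0.0852 to 0.508 in series A and at -0.188 to 0.0331 in series B. Differently numbered arrays of different groups were not compared, so whether the replicate numbers pair the arrays was not tested. The replicate block gave 1, 511, 9, 27 and 16 calls. Under it 5-ALA minus AtrxΔE2 was 0.32 for H3f3a, -0.18 for Daxx, -0.078 for Smchd1, -0.13 for Ezh2 and -0.11 for Eed. 5-ALA minus wild type was 0.47 for H3f3a, -0.21 for Daxx, -0.059 for Smchd1, -0.23 for Ezh2 and -0.016 for Morc2a. All of these have the opposite sign to the values reported, but they set a single 5-ALA array against series B and are no reversal over the 4 5-ALA arrays.

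Morc3 and Suz12 lost the treatment call with only the groups compared, both uses of pairs and the blank covariate (limma adjusted p up to 0.254 and 0.398). Under the replicate block Morc3 lost it too, with a difference of 0.22 that rests on 5-ALA array 4. The difference of Suz12 cannot be estimated there, as its spot on that array was unusable. Suz12 also lost it with the trended prior, median scaling and the authors' values. Eed, Smchd1 and Suz12 passed against wild type with median scaling, and Suz12 also with spots left out only when marked at all 3 gains (limma adjusted p = 0.0387). Eed passed in the genotype comparison of series B with median scaling (0.0449). The causes were not tested.

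The other differences that turned were not called as reported. With series as a covariate the genotype differences were -0.0050 for Daxx, 0.00016 for Hira, -0.040 for Morc3, -0.037 for Ezh2, 0.022 for Eed and -0.016 for Smchd1. With the blank covariate, H3f3a stood at -0.038 in the first series and -0.023 in the second. In the latter H3f3b was -0.028, Daxx 0.13 and Hira -0.044, and the difference of genotype effects was 0.048 for Daxx. Quality weights gave -0.026 for H3f3a and -0.010 for H3f3b, and cyclic loess -0.0015 for Hira. Median scaling gave 0.044 for Daxx, 0.026 for Suz12 and, against wild type, 0.0037 for H3f3a. The authors' values gave -0.0038 for H3f3a, -0.061 for H3f3b, -0.016 for Hira, -0.047 for Smchd1, -0.068 for Ezh2 against wild type and -0.029 for the difference of genotype effects of Suz12. With 1 array left out, genotype differences in series A ran from -0.074 to 0.12 for H3f3a, -0.074 to 0.0063 for Hira and -0.014 to 0.13 for Ezh2. In series B they ran from -0.012 to 0.23 for H3f3a, -0.043 to 0.050 for H3f3b, -0.074 to 0.0020 for Daxx, -0.013 to 0.055 for Hira and -0.014 to 0.039 for Smchd1. The treatment difference of Eed ran from -0.017 to 0.11, those against wild type from -0.0034 to 0.17 for Daxx and -0.048 to 0.10 for Ezh2, and the differences of genotype effects from -0.034 to 0.22 for H3f3a and -0.016 to 0.054 for Suz12.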
